A study of Mus musculus with 168 samples.

Results

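Natural killer (NK) cells of the mouse spleen were profiled 4 h after the last of 3 gavages of a Janus kinase (JAK) inhibitor and compared with NK cells of mice given vehicle. The comparison holds 5 inhibitor arrays and 3 vehicle arrays, out of 27 spleen NK arrays and 168 arrays in the series. The arrays were chosen by their labels alone: cell type NK, spleen, 3 treatments and 4 h since the last one, against the 0.5 % MC vehicle of the same cell type. Of the inhibitor arrays, 2 were of mice given SB00526221, 1 of a mouse given SB00526222 and 2 of mice given SB00526226. All 5 belong to the experiment coded J2. Of the vehicle arrays, 2 belong to J2 and come from mice gavaged 14 times and killed 14 h after the last gavage, and 1 belongs to the experiment coded J6, with 15 gavages and 15 h. No vehicle NK array had the 3 treatments and 4 h of the inhibitor groups, so the inhibitor, the number of gavages and the hours since the last one cannot be told apart. All mice were male C57BL/6 aged 6 weeks, and the compounds are known here by their codes, with no dose in the labels. NK cells carried the surface label Nk1.1+, were sorted into TriZol, and their total RNA was hybridised to Affymetrix Mouse Gene 1.0 ST arrays. Another 16 NK arrays hold the same 3 compounds after prolonged treatment (14 or 15 gavages, 14 to 17 h after the last). The remaining 3 of the 27 NK arrays, also of J2, are of mice given a further compound, SB00526228. These mice were gavaged 14 times and killed 14 h after the last gavage. Their arrays are not compared here and enter the fits through the shared spread.

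NK cells are innate lymphocytes that kill infected and transformed cells by releasing perforin and granzymes, and that depend on interleukin-15 for survival. Interleukin-15 and interleukin-2 signal through JAK1 and JAK3 to STAT5, which drives SOCS-family feedback inhibitors, the survival factor BCL2 and effector genes such as granzyme B. Type I interferons signal through JAK1 and TYK2 and induce antiviral genes through the interferon-stimulated response element.

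The labelled cell type was borne out by its markers. The mean log2 level of 8 NK markers was 12.05 to 12.31 in the 4 h arrays and 11.96 to 12.45 in the vehicle arrays, and Ncr1, the activating receptor NKp46, was 13.38 ± 0.08 (SD, n = 5) against 13.54 ± 0.05 (SD, n = 3). All values below are log2 of the deposited RMA values, and array medians before log2 ran from 122 to 138.3 among these 8 arrays. The mean of 9 macrophage markers was 6.76 to 7.58 at 4 h, highest in both SB00526226 arrays (7.47 and 7.58), and 6.46 to 6.91 in vehicle. Of the 7 tested macrophage markers none was called and the median difference was 0.69, with Vcam1 at 0.73 (adjusted p = 0.247) and Csf1r at 0.55 (adjusted p = 0.461, both limma). Of 8 T cell markers 5 were tested, none was called, and the list mean ranged from 7.20 to 7.93 at 4 h and from 7.16 to 7.87 in vehicle. For 7 dendritic cell markers the ranges were 7.53 to 8.608 and 7.11 to 8.618, and no neutrophil marker was high enough to be tested. The part of these cells in the results below was not tested. Counts without both SB00526226 arrays, which had the highest macrophage markers, are given beside those of all compounds together. In such sorted populations, fewer cells of a type and less RNA per cell cannot be told apart. None of these 8 arrays stood apart from the other NK arrays in correlation; 3 of the prolonged arrays did, all of the experiment coded J8, and they enter the fit below through the shared spread.

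Gzmb (granzyme B), Socs2 and Bcl2 were lower in NK cells of all 5 inhibitor-treated mice than in all 3 vehicle arrays, and so were Clnk, F2rl2, Mmachc, Treml2, Alg8 and the interferon-stimulated gene Ifit1. Mir142, Dusp2, Snord57 and Akap8l were higher. In limma's moderated test on all 27 NK arrays with the experiment as a covariate, 13 of 10957 genes passed an adjusted p of 0.05, which is 0.119%. Of these, 9 fell (0.0821%) and 4 rose (0.0365%). At an unadjusted p of 0.05, 757 genes were lower (6.91%) and 440 higher (4.02%). All 5 inhibitor arrays lay below all 3 vehicle arrays for 701 genes (6.4%) and above them for 248 (2.263%); of the 13 called genes, 9 lay below, 2 above and 2 overlapped. The count of 13 rested on single arrays. It was 1 without vehicle replicate 1, 7 without vehicle replicate 2, 6 and 3 without SB00526221 replicates 1 and 2, 2 and 6 without SB00526226 replicates 1 and 2, and 0 without both SB00526226 arrays (860 genes at an unadjusted p of 0.05). With the 4 h and vehicle arrays fitted alone it was 549, and without the 3 prolonged arrays that stood apart 186. All 13 kept their sign in each alternative, and Gzmb was the one gene called in all 8 fits that left out 1 array. Mmachc was called in 6 of these 8 fits, Socs2 and F2rl2 in 5 and Bcl2 in 4. Clnk, Treml2 and Mir142 were called in 3, Dusp2, Alg8, Ifit1 and Snord57 in 2, and Akap8l in 1.

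**Figure D1:**
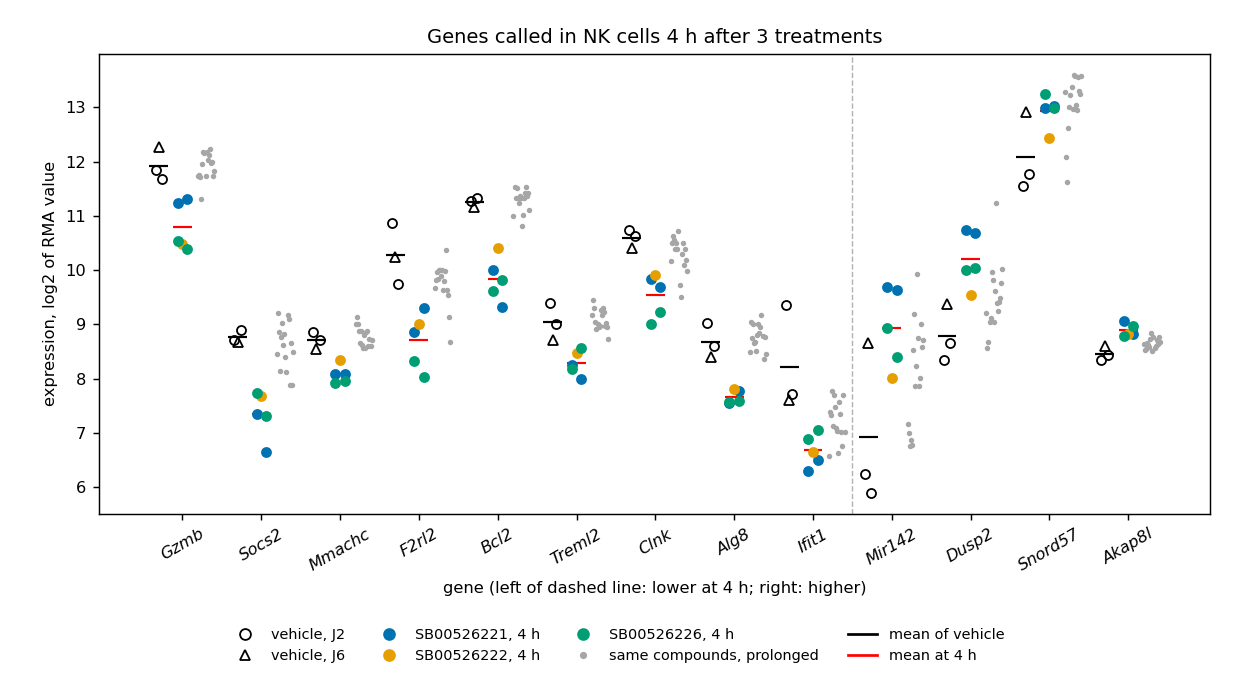
Expression (log2 of the RMA value, vertical axis) of the 13 called genes in each NK array; open symbols are the 3 vehicle arrays, coloured points the 5 arrays at 4 h by compound, grey points the 16 prolonged arrays of the same compounds, and horizontal lines group means. For the 9 genes left of the dashed line no coloured point reaches an open one, while for Mir142 and Snord57 the J6 vehicle array (triangle) lies among the 4 h arrays.

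Gzmb encodes granzyme B, the serine protease that NK cells deliver into their targets. Its level was 11.24 and 11.32 in the SB00526221 arrays, 10.47 in the SB00526222 array and 10.53 and 10.38 in the SB00526226 arrays, against 11.84 and 11.68 in the J2 vehicle arrays and 12.27 in the J6 vehicle array. All 5 lay below the lowest vehicle array, with the SB00526221 arrays nearest to it. Gzmb fell by 1.03 on the log2 scale (SE 0.13, adjusted p = 0.000493 by limma), a 2.04-fold difference. Without 1 array at a time the adjusted p stayed at or below 0.0192, and it was 0.0599 without both SB00526226 arrays at 4 h. The other granule genes moved less. Of 18 tested members of the cytotoxic granule and death ligand list, Gzmb was the 1 called, against 0.119% of all genes. The median difference of the list was -0.09, against -0.01 over all genes. Perforin (Prf1), which opens the target membrane, differed by 0.24 (adjusted p = 0.591), and Gzma, encoding granzyme A, by 0.36 (adjusted p = 0.498). Rab27a, which docks lytic granules, was at 0.48 and Lamp2, a lysosomal membrane protein, at -0.50, with adjusted p of 0.220 and 0.376.

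Socs2 encodes a cytokine-inducible feedback inhibitor of the JAK-STAT pathway. It read 7.34 and 6.66 with SB00526221, 7.68 with SB00526222 and 7.73 and 7.32 with SB00526226, against 8.706, 8.90 and 8.675 in vehicle. The groups did not overlap, and the vehicle arrays lay within a narrow range. Socs2 fell by 1.43 (SE 0.23, adjusted p = 0.0126, limma), a 2.70-fold difference. A second Socs2 probe set on the array differed by -0.12 within J2, where the tested one differed by -1.46. Bcl2 encodes the anti-apoptotic protein that sustains resting NK cells. It read 10.01 and 9.31 with SB00526221, 10.41 with SB00526222, 9.62 and 9.83 with SB00526226, and 11.28, 11.33 and 11.17 in vehicle. Every inhibitor array was below every vehicle array, and the 16 prolonged arrays (10.82 to 11.54) were also all above the 4 h arrays. Bcl2 fell by 1.41 (SE 0.25, adjusted p = 0.0175, limma). Leaving out vehicle replicate 1 gave an adjusted p of 0.177 for Socs2 and 0.366 for Bcl2.

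Gzmb, Socs2 and Bcl2 were the 3 called genes among 18 tested STAT5 targets and SOCS feedback genes, against 0.119% of all genes. The median difference of the list was -0.26, and 12 of 18 differences were negative, where 52% of all tested genes were. All inhibitor arrays lay below all vehicle arrays for 7 of the 18, against 6.4% of all genes. This and the other gene lists were chosen with earlier results of these data known. Nothing is therefore read from a list's share set against that of all genes. Il2ra, the high-affinity interleukin-2 receptor chain, was at -0.97 (adjusted p = 0.220), Osm, encoding the cytokine oncostatin M, at -0.66 (adjusted p = 0.208) and Cdk6, a G1 cyclin-dependent kinase, at -0.63 (adjusted p = 0.375). The STAT5-induced gene Cish was at -0.26 (adjusted p = 0.666). Pim1 encodes a survival kinase induced by STATs and was at 0.43 (adjusted p = 0.538). Socs1 and Socs3 differed by -0.03 and 0.12, with adjusted p of 0.972 and 0.858. In the BCL2 family, 1 of 13 tested members was called, again Bcl2, against 0.119% of all genes, and the list's median was 0.14. Bid, a pro-apoptotic member, was at -0.39 (adjusted p = 0.280), Bcl2l1, encoding BCL-XL, at -0.26 (adjusted p = 0.559), Mcl1, another anti-apoptotic member, at 0.22 (adjusted p = 0.734) and Bcl2l11, encoding the death inducer BIM, at 0.15 (adjusted p = 0.766).

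None of 29 tested JAK-STAT components was called by limma, and the median was -0.02. At an unadjusted p of 0.05, 2 were lower and 2 higher, against 6.91% and 4.02% of all genes. Il2ra, which is also in this list, had the lowest difference of the 29 (-0.97) and ranged from 6.48 to 7.33 at 4 h and from 7.37 to 8.47 in vehicle, with no overlap. Jak1 was at 0.22 (adjusted p = 0.630), Jak2 at -0.24 (adjusted p = 0.795), Tyk2 at 0.32 (adjusted p = 0.599) and Stat5b at 0.27 (adjusted p = 0.545). Il15ra, which presents interleukin-15, was at -0.37 (adjusted p = 0.278), and the interleukin-10 receptor chain Il10ra at 0.42 (adjusted p = 0.273).

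Clnk encodes an adaptor of the SLP-76 family that acts downstream of activating receptors. It read 9.83 and 9.68 with SB00526221, 9.91 with SB00526222, 9.01 and 9.24 with SB00526226, and 10.75, 10.63 and 10.41 in vehicle. The groups did not overlap, and the SB00526226 arrays were lowest. Clnk fell by 1.04 (SE 0.19, adjusted p = 0.0246, limma). It was the 1 called gene among 29 tested NK receptors and adaptors, against 0.119% of all genes, and the median of the list was -0.06. Klrb1a, an NK receptor of the NKR-P1 family, was at -0.81 (adjusted p = 0.0735), below vehicle in all 5 arrays. Cd226, an activating receptor for nectin-like ligands, was at -0.70 (adjusted p = 0.310), the adaptor gene Sh2d1b1 at -0.51 (adjusted p = 0.397) and the lectin-like receptor Klre1 at 0.66 (adjusted p = 0.283).

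F2rl2 encodes the protease-activated receptor PAR3. Its arrays read 8.85 and 9.31 with SB00526221, 9.01 with SB00526222, 8.34 and 8.03 with SB00526226, and 10.88, 9.74 and 10.24 in vehicle, with no overlap. F2rl2 fell by 1.57 (SE 0.26, adjusted p = 0.0126, limma), 2.97-fold. Mmachc, a vitamin B12 processing enzyme, ranged from 7.92 to 8.35 at 4 h and from 8.55 to 8.86 in vehicle, and fell by 0.75 (SE 0.13, adjusted p = 0.0126). Treml2, a TREM-like receptor, ranged from 7.99 to 8.56 and from 8.716 to 9.40, and fell by 0.89 (SE 0.16, adjusted p = 0.0244). Alg8, a glucosyltransferase of N-glycan assembly in the endoplasmic reticulum, ranged from 7.55 to 7.80 and from 8.39 to 9.02, and fell by 1.11 (SE 0.21, adjusted p = 0.0305). Leaving out vehicle replicate 1 gave an adjusted p of 0.996 for Clnk, 0.817 for F2rl2, 0.323 for Mmachc, and 1.0 for Treml2 and Alg8. Just past the threshold, with groups that did not overlap, were Ppa1, an inorganic pyrophosphatase, at -0.92 (adjusted p = 0.0649) and Psmg2, a proteasome assembly chaperone, at -0.82 (adjusted p = 0.0735).

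Ifit1 encodes an antiviral RNA-binding protein that interferon induces strongly. Its level was 6.29 and 6.50 with SB00526221, 6.65 with SB00526222, 6.89 and 7.06 with SB00526226, and 9.35, 7.72 and 7.60 in vehicle. All inhibitor arrays were below all vehicle arrays, and vehicle replicate 1 was far above the rest. Ifit1 fell by 1.63 (SE 0.33, adjusted p = 0.0481, limma). Without vehicle replicate 1 the difference was -0.95, with an adjusted p of 1.0. Ifit1 was the 1 called gene among 33 tested interferon-stimulated genes, of 43 listed, against 0.119% of all genes. At an unadjusted p of 0.05, 18 of the 33 were lower and 0 higher, against 6.91% and 4.02% of all genes, and the list's median was -0.38. The mean level of the list was 8.27 to 8.46 in the 4 h arrays and 8.99, 8.58 and 8.60 in vehicle, so the groups did not overlap. Without vehicle replicate 1 the median was -0.24, and over all alternatives it ran from -0.44 to -0.24. Oasl2, of the oligoadenylate synthetase family, was at -1.06 (adjusted p = 0.0735), the exonuclease gene Isg20 at -0.88 (adjusted p = 0.192), the GTPase gene Mx1 at -0.67 (adjusted p = 0.183) and Dhx58, a regulator of RNA sensing, at -0.55 (adjusted p = 0.179). Cxcl10, an interferon-induced chemokine named here after its values were seen, ranged from 6.45 to 7.18 at 4 h and read 11.51, 8.0 and 7.23 in vehicle. Its difference was -2.42 (adjusted p = 0.0735), and it was -1.01 without vehicle replicate 1.

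The called genes were set beside the promoter sequences of RefSeq (GRCm38.p6), which run from 250 bases before to 50 after each gene's first base, counted as position 0. A pair of motifs was searched on both strands: TTCNNNGAA, the core of the gamma-activated site bound by STAT dimers, and GAAANNGAAA, the core of the interferon-stimulated response element. Of the 13 called genes 9 had a promoter entry, and of these Gzmb and Clnk held TTCNNNGAA and Ifit1 held GAAANNGAAA. TTCNNNGAA occurred in 8.3% of all 32851 promoters and GAAANNGAAA in 3.44%. In the 11131 promoters of tested genes the shares were 6.89% and 3.05%. Of 10 further genes searched, 3 held TTCNNNGAA, Cish among them, and 2 held GAAANNGAAA. The windows around the matches of called genes are shown with the match in capitals, on the gene's strand. Beside them is that of Cish, a long-known STAT5 target that was not called here. Ifit1 is on the plus strand at chr19:34640759-34640838 (-130 to -51), with a match beginning at each capitalised stretch. Clnk is on the minus strand at chr5:38876754-38876803 (-110 to -61). Gzmb is on the minus strand at chr14:56262285-56262308 (26 to 49 after the start), and Cish on the plus strand at chr9:107296659-107296688 (0 to 29). A match is a run of letters and no evidence of binding.
Ifit1: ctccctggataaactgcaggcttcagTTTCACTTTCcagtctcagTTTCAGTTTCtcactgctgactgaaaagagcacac
Clnk: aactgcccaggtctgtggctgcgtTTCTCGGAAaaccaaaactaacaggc
Gzmb: gggcaggagttTTCATAGAAagca
Cish: TTCCTGGAAagTTCTTGGAAatctgtcaaa

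Mir142 is the gene of a microRNA abundant in blood cells, and it had the largest rise. Its hairpin lies on the plus strand at chr11:87756864-87756927 (GRCm38.p6), and its mature arms are shown with the seed, bases 2 to 8, in capitals. The labelling used for this array is designed for long RNA, so the value is not a measure of the mature arms.
miR-142a-5p: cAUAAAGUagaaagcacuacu
miR-142a-3p: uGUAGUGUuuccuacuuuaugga

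The Mir142 probe set read 9.69 and 9.63 with SB00526221, 8.02 with SB00526222, 8.93 and 8.40 with SB00526226, and 6.24 and 5.90 in the J2 vehicle arrays. The J6 vehicle array read 8.655, which lies among the 4 h arrays, so the groups overlapped and the call rests on the experiment term. Mir142 rose by 2.60 (SE 0.45, adjusted p = 0.0145, limma), and within J2 alone the 5 inhibitor arrays were all above both vehicle arrays. The prolonged arrays of the same compounds ranged from 6.76 to 9.92. Without vehicle replicate 1 the adjusted p was 0.366. In CD4 T cells at the same time point Mir142 was the 1 gene of 10601 that passed (0.00943%), at 2.34 (SE 0.43, adjusted p = 0.0259, limma). The T cell means were 8.595 ± 0.41 (SD, n = 5) at 4 h and 7.88 ± 1.34 (SD, n = 7) in vehicle, and that call too rests on the experiment term, with 1 vehicle array in J2. Snord57, a small nucleolar RNA, had the same overlap: 12.43 to 13.25 at 4 h, 11.55 and 11.77 in the J2 vehicle arrays and 12.92 in the J6 array. It rose by 1.14 (SE 0.23, adjusted p = 0.0481). Its adjusted p was 1.0 without vehicle replicate 1.

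Dusp2 encodes a nuclear phosphatase of MAP kinases and is induced early by receptor signalling. It read 10.73 and 10.68 with SB00526221, 9.54 with SB00526222, 10.003 and 10.05 with SB00526226, and 8.34, 8.665 and 9.38 in vehicle. The groups did not overlap, with the SB00526221 arrays highest. Dusp2 rose by 1.59 (SE 0.31, adjusted p = 0.0343, limma), a 3.02-fold difference, and without vehicle replicate 1 the adjusted p was 1.0. No gene was called higher without the experiment term, or with the experiment as a random block. The rises of Dusp2, and of Akap8l below, were thus not called in those fits. Dusp2 was the 1 called gene among 30 tested immediate early and activation genes, against 0.119% of all genes. At an unadjusted p of 0.05 in limma, 14 of the 30 were higher and 1 lower, against 4.02% and 6.91% of all genes. The median of the list was 0.41. Dusp1, another MAP kinase phosphatase, was at 1.13 (adjusted p = 0.285), the AP-1 genes Jun and Junb at 1.06 (adjusted p = 0.330) and 0.93 (adjusted p = 0.208), and Ier2 at 0.91 (adjusted p = 0.183). Zfp36l2, an mRNA decay factor, was at 0.81 (adjusted p = 0.230), Klf2, a quiescence factor that controls trafficking, at 0.76 (adjusted p = 0.165) and the anti-proliferative gene Btg2 at 0.59 (adjusted p = 0.208). The list mean overlapped between groups, at 8.54 to 8.99 against 8.25 to 8.718, with the SB00526221 arrays highest. Akap8l, a nuclear A-kinase anchor-like protein, ranged from 8.80 to 9.07 and from 8.35 to 8.60, and rose by 0.51 (SE 0.10, adjusted p = 0.0498). Its adjusted p was 1.0 without vehicle replicate 1.

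Among 13 tested glucocorticoid-induced genes none was called by limma, and the median was 0.43. At an unadjusted p of 0.05, 6 were higher and 0 lower, against 4.02% and 6.91% of all genes. Tsc22d3, encoding the leucine zipper protein GILZ, was at 0.66 (adjusted p = 0.231), the kinase gene Sgk1 at 0.58 (adjusted p = 0.229), Pik3ip1, a PI3 kinase inhibitor, at 0.55 (adjusted p = 0.147) and Txnip, a thioredoxin inhibitor, at 0.53 (adjusted p = 0.247). The median was 0.63 with SB00526221, 0.26 with SB00526222 and 0.16 with SB00526226, and over the alternatives it ran from 0.24 to 0.56. Among 13 tested circadian clock genes none was called and the median was 0.01. Per2 was at -0.42 (adjusted p = 0.346) and Bhlhe40, a clock repressor, at 0.52 (adjusted p = 0.400).

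None of 21 tested genes of Myc, polyamine synthesis, amino acid transport and ribosome biogenesis was called, and the median was -0.25. At an unadjusted p of 0.05 by limma, 8 were lower and 0 higher, against 6.91% and 4.02% of all genes. The list mean was 8.36 to 8.59 at 4 h and 8.739, 8.764 and 8.96 in vehicle, with no overlap. Srm, encoding spermidine synthase, ranged from 7.37 to 8.47 and from 8.75 to 9.26, a difference of -1.24 (adjusted p = 0.118). Slc7a5, the large neutral amino acid transporter, was at -0.76 (adjusted p = 0.327), Polr1b, an RNA polymerase I subunit, at -0.74 (adjusted p = 0.198), Mthfd2, a mitochondrial folate enzyme, at -0.58 (adjusted p = 0.198) and Myc itself at -0.52 (adjusted p = 0.461). Of 28 tested cell cycle genes none was called, and the median was -0.29. Of these, 7 were lower and 2 higher at an unadjusted p of 0.05 by limma, against 6.91% and 4.02% of all genes. The list mean was 8.19 to 8.31 at 4 h and 8.718, 8.41 and 8.50 in vehicle, again highest in vehicle replicate 1, without which the median was -0.20. Ccna2, encoding cyclin A2, was at -1.40 (adjusted p = 0.179), Ccnb2, encoding cyclin B2, at -1.18 (adjusted p = 0.213), topoisomerase Top2a at -0.70 (adjusted p = 0.275) and the cell cycle inhibitor Cdkn1b at 0.40 (adjusted p = 0.375).

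**Figure D2:**
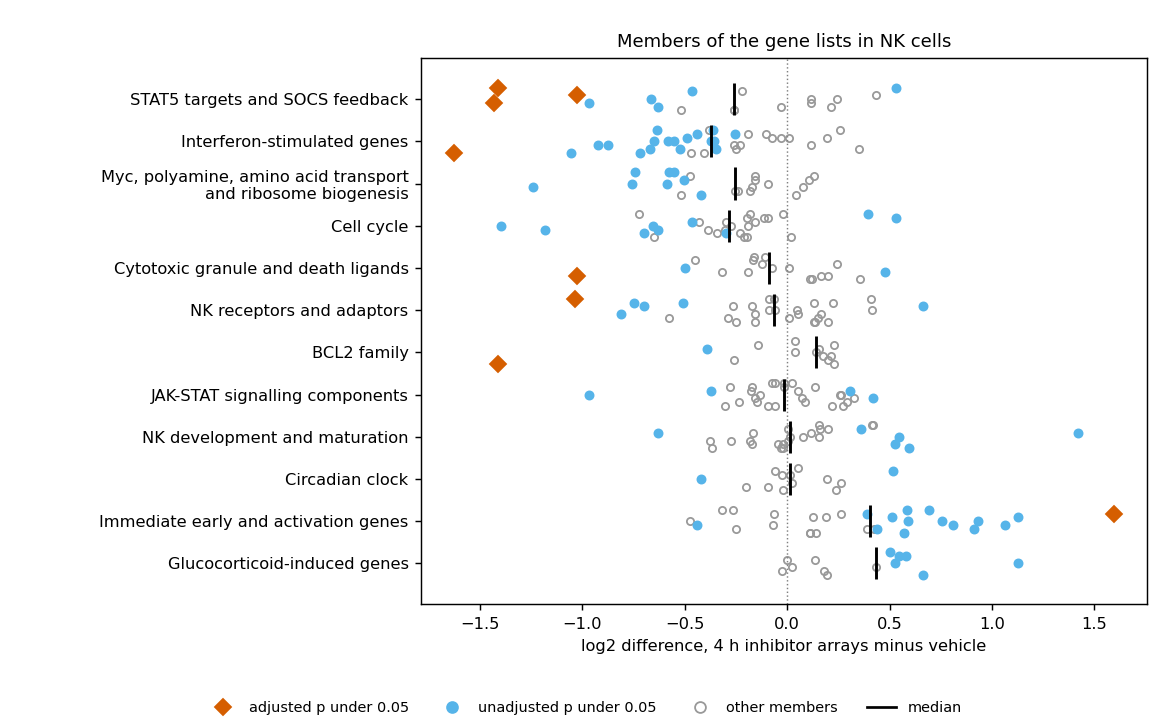
Log2 difference of the 4 h inhibitor arrays minus vehicle (horizontal axis) for each tested member of 12 gene lists; diamonds passed an adjusted p of 0.05, filled circles an unadjusted p of 0.05, and vertical bars are list medians. The medians run from -0.38 for interferon-stimulated genes to 0.43 for glucocorticoid-induced genes, and most members of every list did not pass the adjusted threshold.

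**Figure D3:**
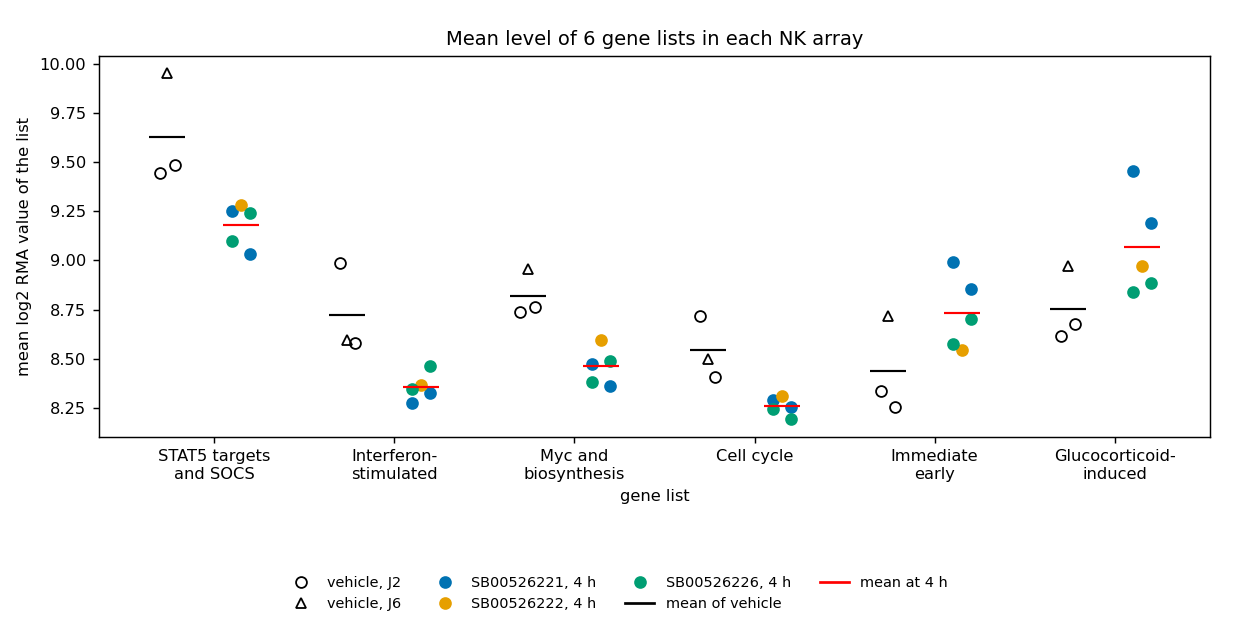
Mean log2 RMA value of 6 gene lists (vertical axis) in each of the 3 vehicle arrays (open symbols) and 5 arrays at 4 h (coloured by compound), with group means as lines. The 4 h arrays lie below all vehicle arrays for the STAT5, interferon, Myc and cell cycle lists, and the groups overlap for the immediate early and glucocorticoid lists.

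Of 27 tested genes of NK development and maturation none was called by limma, and the median was 0.01. At an unadjusted p of 0.05, 1 was lower and 5 higher, against 6.91% and 4.02% of all genes. S1pr5, the sphingosine phosphate receptor by which NK cells leave the marrow and lymph nodes, was at 1.42 (adjusted p = 0.0735). It read 11.15 to 11.38 in the 4 h arrays, 9.35 and 9.81 in the J2 vehicle arrays and 11.46 in the J6 vehicle array, so that the groups overlapped through the J6 array. Itgam, the CD11b chain of mature NK cells, was at 0.60 (adjusted p = 0.192) and above vehicle in all 5 arrays, and the transcription factor gene Tbx21 was at 0.53 (adjusted p = 0.223). Of 11 tested cytokine and chemokine genes none was called. Ifng, encoding interferon gamma, was at -0.63 (adjusted p = 0.327), with overlapping groups, and Xcl1, a chemokine that attracts dendritic cells, was at -0.51 (adjusted p = 0.408). Among the highest statistics outside the lists were H2-Q4, a class I histocompatibility gene, at 0.91 and Rab5b, an early endosome GTPase, at 0.90, both with an adjusted p of 0.0735 and no overlap. The linker histone gene H1f2 was at 1.19 (adjusted p = 0.127).

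The 3 compounds were compared at the same number of gavages and hours, although not at a known common dose. Against vehicle, 7 genes passed with SB00526221 (0.0639%; 3 lower, 0.0274%, and 4 higher, 0.0365%), 1 with SB00526222 (0.00913%) and 7 with SB00526226 (0.0639%), all by limma. The group of SB00526222 has 1 array, assumed to vary like the others. With SB00526221, Socs2 (-1.78), Bcl2 (-1.59) and Treml2 (-1.06) fell, and Mir142 (3.328), Dusp2 (2.10), Rasgrp2 (0.94) and Ccl3 (0.92) rose. Rasgrp2 is a Rap1 exchange factor and Ccl3 an inflammatory chemokine. With SB00526222, the 1 gene past the threshold under that assumption was Gzmb, at -1.34; this single array gives no spread of its own. With SB00526226, F2rl2 (-2.10), Clnk (-1.45), Gzmb (-1.36), Klrb1a (-1.35), Psmg2 (-1.17), Cmklr1 (-1.005) and Mmachc (-0.89) fell; Cmklr1 is the chemerin receptor. All 13 genes called over the 3 compounds had the same sign with each of them. The call of 7 with SB00526221 became 1 and 0 without its replicates 1 and 2 and 0 without vehicle replicates 1 and 2, and the 7 with SB00526226 became 1 without either of its replicates or vehicle replicate 1 and 4 without vehicle replicate 3.

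**Figure D4:**
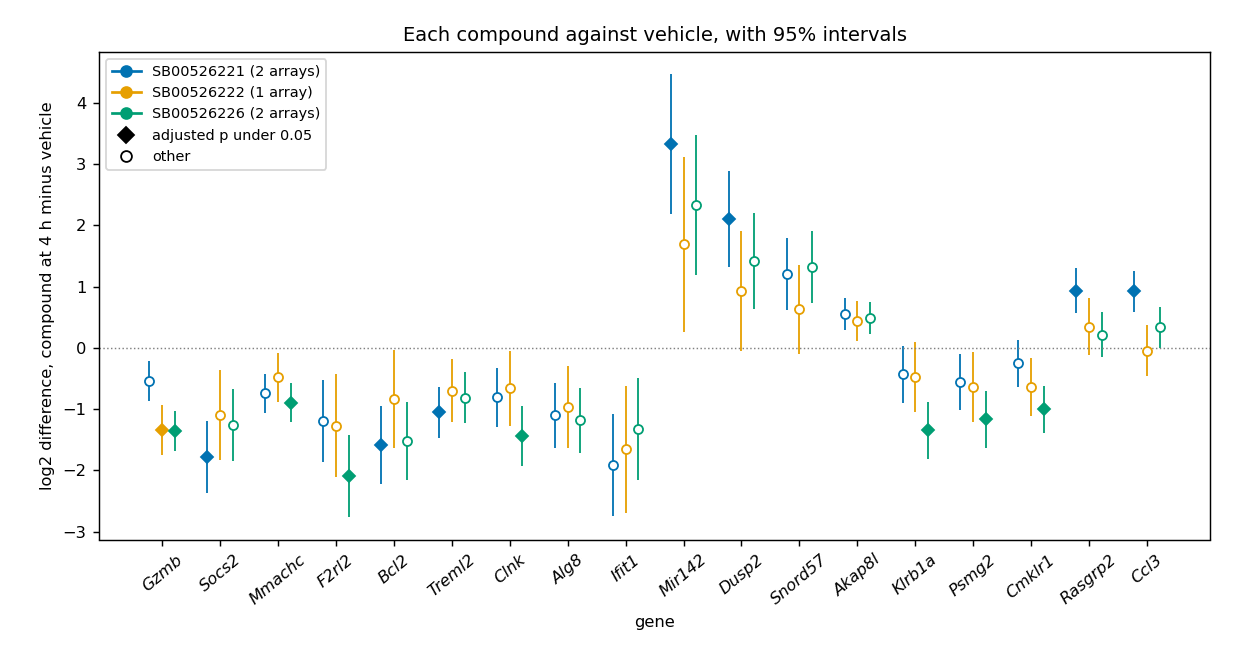
Log2 difference of each compound at 4 h minus vehicle (vertical axis), with 95% intervals, for the genes called over all compounds or with one of them; filled diamonds passed an adjusted p of 0.05. The intervals of the compounds overlap for most genes, and Gzmb is nearer to 0 with SB00526221 (-0.54) than with SB00526222 (-1.34) or SB00526226 (-1.36).

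No gene differed between any of the 3 pairs of compounds at an adjusted p of 0.05 over genes and pairs in limma, where 551, 225 and 315 genes had an unadjusted p under 0.05 for SB00526226 minus SB00526221, SB00526222 minus SB00526221 and SB00526226 minus SB00526222. The median 95% interval of a difference, not adjusted for the number of tests, reached 0.43 to either side for the first pair and 0.53 for the others. Differences of that size could not be seen in most genes, and larger ones could go uncalled too, as for Hsph1 and Gzmb below. The counts were 40, 43 and 9 genes, in the same order, with the 4 h and vehicle arrays fitted alone, and 6, 9 and 2 with array weights. Both pairs with SB00526222 rest on its single array. For Gzmb, SB00526226 minus SB00526221 was -0.82 (95% interval -1.17 to -0.48, adjusted p = 0.400), and SB00526226 minus SB00526222 was -0.02 (-0.44 to 0.41). For Socs2 the first difference was 0.52 (-0.10 to 1.15), and for Bcl2 it was 0.06 (-0.61 to 0.73). Hsph1, a heat shock chaperone, had one of the lowest statistics of that pair: it read 9.01 and 8.79 with SB00526221 and 7.37 and 7.38 with SB00526226, a difference of -1.53 (-2.10 to -0.95, adjusted p = 0.400). Cxcr6, a chemokine receptor, had one of the highest, at 7.74 and 7.10 against 9.08 and 8.33, a difference of 1.29 (0.58 to 1.99, adjusted p = 0.904). The macrophage markers were highest in the SB00526226 arrays, at a list median against vehicle of 1.11, compared with 0.36 for SB00526221 and 0.25 for SB00526222. The T cell and dendritic cell markers were lowest in the SB00526221 arrays among those at 4 h. The T cell list median against vehicle was -0.87 with SB00526221, 0.02 with SB00526222 and -0.09 with SB00526226, and the dendritic cell list median was -0.82, 0.24 and -0.03. The part of these markers in the differences between compounds was not tested.

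The 4 h arrays were also set against the 16 prolonged arrays of the same compounds, which share no vehicle array with that contrast. Of 10957 genes 161 passed (1.47%), 114 lower (1.04%) and 47 higher (0.429%) at 4 h, by limma. The count was 90 and 72 without SB00526221 replicates 1 and 2, 105 and 103 without SB00526226 replicates 1 and 2, 50 without both SB00526226 arrays and 302 without the 3 prolonged arrays that stood apart. Of the 18 STAT5 targets 7 were lower than in prolonged arrays and 0 higher, of 21 Myc and biosynthesis genes 9 were lower and 0 higher, and of 33 interferon-stimulated genes none passed. Srm differed by -1.80 (SE 0.26, adjusted p = 0.00109), Bcl2 differed by -1.56 (adjusted p = 0.00109) and Cish by -0.71 (adjusted p = 0.0310). Mir142 differed by 2.149 (adjusted p = 0.00429), Jun by 1.41 (adjusted p = 0.0395), Dusp2 by 1.38 (adjusted p = 0.00701), H1f2 by 1.38 (adjusted p = 0.00516) and Klrg1, an inhibitory receptor of mature NK cells, by 1.32 (adjusted p = 0.00429). Prolonged arrays against the same 3 vehicle arrays gave no call in limma (358 genes at an unadjusted p of 0.05). In that contrast Gzmb was at -0.26, Socs2 at -0.20, Bcl2 at 0.15, Cish at 0.45, Ifit1 at -0.89 and Mir142 at 0.45. That contrast shares its vehicle arrays with the 4 h contrast. Its list medians were 0.207 for STAT5 targets, 0.265 for Myc and biosynthesis genes and -0.198 for interferon-stimulated genes. The 7 and 9 lower genes above were thus compared with prolonged arrays whose list medians lay above vehicle.

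CD4 T cells of the spleen were profiled at the same 4 h schedule (5 arrays) and after prolonged vehicle (7 arrays, 1 of them in J2). No gene's 4 h difference in NK cells stood apart from that in T cells at an adjusted p of 0.05 over 10601 genes in limma (321 at an unadjusted p of 0.05). The lowest adjusted p was 0.105, for S1pr5, at a difference of 1.70 between the cell types, with -0.28 (SE 0.25) in T cells. In T cells Socs2 was at -0.53 (SE 0.23), Bcl2 at -0.65 (SE 0.22), Ifit1 at -0.93 (SE 0.34) and Dusp2 at 0.68 (SE 0.29), none of which passed there. Gzmb was at -0.14 (SE 0.24) and Mmachc at -0.04 (SE 0.14). These T cell differences depend on the experiment term, with 1 vehicle array in J2. The T cell means of Gzmb were 5.94 ± 0.25 (SD, n = 5) at 4 h and 6.90 ± 1.17 (SD, n = 7) in vehicle. Those of Socs2 were 6.87 ± 0.33 and 8.54 ± 1.2. Within J2 the T cell differences were 0.315 for Gzmb and -0.53 for Socs2. The list medians in T cells were -0.24 for interferon-stimulated genes, -0.12 for STAT5 targets, 0.20 for immediate early genes and 0.22 for glucocorticoid-induced genes, against 0.02 over all genes tested.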

How the data were processed

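RNA of sorted spleen NK cells was hybridised to 1-colour arrays. The deposited intensity values per probe set were made by the authors with Affymetrix Power Tools and RMA, per the submitters' processing notes; their versions, and which arrays were normalized as 1 set, are not known here. Values were linear, and log2 was taken without a pseudocount. Probe sets with 1 gene symbol (21425 of 24922) were used, 1 per gene by the highest mean, and genes above the array median in at least 3 NK arrays were kept (10957). limma 3.58.1 (R 4.3.3) was fitted to all 27 NK arrays with group (compound by schedule) and experiment as fixed effects. The 4 h groups were weighted 2, 1 and 2 by arrays, p-values were two-sided and adjusted by Benjamini-Hochberg, and for pairs of compounds over genes and pairs together. NK and T cell arrays were fitted jointly with the animal as a random block (correlation 0.0504). On simulated data with the same layout, 17.9% of genes changed by 0.5, 88.1% by 1 and 100% by 2 (log2) were recovered. The simulated noise was independent and normal, without experiment effects or outlying arrays. These shares may therefore overstate recovery in the real arrays. The number of arrays limits the precision. By their title codes the 4 h and vehicle NK arrays each come from a different mouse, so their spread holds differences between mice. The labels do not say that the samples of a group were handled separately after sorting. The p-values therefore measure only the spread between these samples, which may be technical in part. Named genes were, per comparison with vehicle, the 10 largest rises and falls past the threshold, the 10 highest and lowest statistics, up to 6 members of each list and a fixed set of JAK, STAT, SOCS, cytotoxic, interferon and clock genes; for pairs of compounds or cell types the 2 extremes of each sign; Cxcl10 is the exception. The members and gene lists were chosen with earlier results of these data known. Alternatives were another treatment of the experiment, other filters, normalization, probe set rule, array weights and leaving out arrays.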

Additional observations from a re-analysis of the deposited data

Results flagged for a closer look

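Among the 87 genes checked, 6 had 1 of the 5 arrays at 4 h far from the others; chance flags about 1 in 20 such groups. SB00526221 replicate 2 was low in Jak2 (9.36, the others 9.71 to 9.73) and Ppa1 (6.85, the others 7.40 to 7.60). SB00526221 replicate 1 was high in Il15ra (8.33, the others 8.14 to 8.18). SB00526226 replicate 1 was low in Stat5b (9.05, the others 9.37 to 9.48). The SB00526222 array was low in Jun (6.93, the others 8.18 to 8.57) and Klf2 (9.69, the others 10.01 to 10.10).

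For 33 of the 87 genes the 4 h effect and the prolonged effect of the same compounds differed, by limma's test of 4 h minus prolonged at an adjusted p of 0.05, against 1.47% of all genes. Many of the 87 were named for their 4 h difference from vehicle, and the same 4 h arrays enter both contrasts, so nothing is read from that share. Among the STAT5 targets and feedback genes this difference was -1.24 for Socs2, -0.71 for Cish, -1.56 for Bcl2, -1.11 for Cdk6, -0.98 for Myc and -0.77 for Gzmb. Among biosynthesis genes it was -1.80 for Srm, -0.96 for Polr1b, -1.14 for Slc7a5 and -0.62 for Mthfd2. Among NK receptors, adaptors and cytokines it was -1.0 for Clnk, -0.80 for Klrb1a, -0.93 for Xcl1, 0.99 for Itgam, 1.32 for Klrg1 and 0.56 for Il10ra. Of the immediate early and glucocorticoid-induced genes, Dusp2 differed by 1.38, Jun by 1.41, Btg2 by 0.85, Tsc22d3 by 1.10, Sgk1 by 0.67, Pik3ip1 by 0.65 and Txnip by 0.73. Of the remaining genes, Mmachc differed by -0.89, F2rl2 by -1.05, Treml2 by -0.91, Alg8 by -1.18, Ppa1 by -1.13, Psmg2 by -0.63, Mir142 by 2.149, H1f2 by 1.38, Rasgrp2 by 0.53 and Cdkn1b by 0.56.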

How the results depend on the processing

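Counts of called genes depended strongly on the settings, and the cause was not tested. For the 3 compounds together against vehicle (13 genes) the count was 4 without the experiment term, 24 with J2 alone, 549 with the 4 h and vehicle arrays alone, 366 with array weights, 186 without the 3 NK arrays that stood apart (all prolonged), 0 without both SB00526226 arrays, an alternative added after seeing the data, and 1 to 16 when 1 array was left out. The 24 genes with J2 alone held 7 of the 13. With the experiment as a random block 13 genes were called, all lower, and they held 9 of the 13. For SB00526221 (7 genes) the count was 3, 25, 268, 157 and 83 under the first 5 settings named above, in that order. It was 3 with the experiment as a random block, 11 after quantile normalization, 4 with no filter, 4 with every probe set and 0 to 9 without 1 array. For SB00526222 (1 gene) it was 0 without the experiment term, 0 in J2 alone and 3 with the 4 h and vehicle arrays alone. For SB00526226 (7 genes) it was 18 in J2 alone, 566 with the 4 h and vehicle arrays alone, 12 with the random block, 171 with array weights, 217 without the arrays that stood apart and 1 to 7 without 1 array. The 3 pairs of compounds, with 0 genes each, gave 40, 43 and 9 with the 4 h and vehicle arrays alone and 6, 9 and 2 with array weights, in the order of the report. For 4 h against prolonged (161 genes) the count was 1091 without the experiment term, 68 in J2 alone, 328 with the random block, 1099 with array weights, 302 without the arrays that stood apart, 50 without both SB00526226 arrays and 72 to 163 without 1 array. The difference between NK and T cells (0 genes) gave 1 gene without the arrays that stood apart and 0 to 1 without 1 array. Socs1 changed sign, to 0.029 in J2 alone and with the 4 h and vehicle arrays alone, 0.059 with array weights, and -0.143 to 0.029 without 1 array; Socs3 ranged from -0.026 to 0.225 without 1 array. No paired analysis was possible because, among NK arrays, the 4 h and vehicle groups come from different animals and the replicate numbers follow accession order. NK and T cell arrays share some animals, and there the animal was a random block.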
